A study of Mus musculus with 32 samples.

Results

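The core program described here is the set of genes for which every culture carrying the oncogene HRAS lay on one side of every culture without it. Of 32 arrays of mouse brain tumour neurospheres, 18 carried HRAS and 14 did not, and of 19938 genes measured 520 (2.61%) met the rule. In 346 genes (1.74%) all 18 HRAS arrays lay above all 14 others, and in 174 (0.873%) they lay below. A group of 11 annexin and S100 genes, the urokinase gene Plau, the AP-1 gene Fosl1 and the Sprouty gene Spry4 belonged to the higher set, and the neuronal RNA-binding genes Elavl2, Elavl3 and Elavl4 to the lower set.

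Neurosphere cells from the lateral ventricle wall of postnatal Trp53-deficient mice (strain B6;129-Trp53tm1Brd) were given oncogenes and transplanted into the brain. Tumour cells that still expressed the transgene were sorted by flow cytometry, grown again as neurospheres and profiled on Affymetrix Mouse Gene 1.0 ST arrays. The HRAS side held HRAS alone (5 arrays) and HRAS+Bmi1 (2 arrays), both labelled glioma, and HRAS+MYC (7 arrays), labelled AT/RT-like for its likeness to atypical teratoid/rhabdoid tumour. It also held MYC then HRAS (2 arrays), in which HRAS was added to cells of a MYC tumour, and HRAS then MYC (2 arrays), in which MYC was added to cells of an HRAS glioma. These consecutive groups are labelled secondary brain tumours. The other side held MYC (6 arrays), MYC+Ezh2 (5 arrays) and MYC+Bmi1 (3 arrays), all labelled PNET, or primitive neuroectodermal tumour.

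All 8 groups were p53-deficient. Every array without HRAS carried MYC, 11 of the HRAS arrays carried it and 7 did not, and no group had neither oncogene. The presence of HRAS and the absence of the PNET label therefore cannot be told apart. Hras had no probe set annotated to it alone, so its level was not analysed here and the labels were not checked by it. The labels do not state that arrays of a group came from different tumours or mice. The p-values therefore cover the spread between these arrays only, which may be technical.

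RAS proteins are membrane-bound switches that are active when they hold GTP. Active RAS passes a signal through the kinases RAF, MEK and ERK, and ERK raises the transcription of growth genes as well as of feedback inhibitors such as the Sprouty proteins. AP-1 is a dimer of FOS and JUN family proteins that binds a short DNA element and carries part of the output of this cascade.

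Promoters of 4 core genes that were higher with HRAS are shown because each holds the AP-1 element TGANTCA, written in capitals. Anxa2 (chr9:69453433-69453682, plus strand), Adh7 (chr3:138217523-138217772, plus strand), Plaur (chr7:24462233-24462482, plus strand) and S100a11 (chr3:93520246-93520495, plus strand) are given 5′ to 3′ over the 250 bases before the start, from RefSeq on GRCm38.p6.
Anxa2: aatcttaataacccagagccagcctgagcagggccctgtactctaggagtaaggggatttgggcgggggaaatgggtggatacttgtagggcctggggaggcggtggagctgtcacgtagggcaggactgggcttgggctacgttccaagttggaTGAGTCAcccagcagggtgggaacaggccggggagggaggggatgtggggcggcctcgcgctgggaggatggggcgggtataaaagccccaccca
Adh7: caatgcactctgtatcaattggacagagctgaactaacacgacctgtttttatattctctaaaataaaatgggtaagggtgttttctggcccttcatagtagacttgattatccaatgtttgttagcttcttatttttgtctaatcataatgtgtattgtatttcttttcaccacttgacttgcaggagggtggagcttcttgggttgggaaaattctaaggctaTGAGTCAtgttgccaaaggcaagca
Plaur: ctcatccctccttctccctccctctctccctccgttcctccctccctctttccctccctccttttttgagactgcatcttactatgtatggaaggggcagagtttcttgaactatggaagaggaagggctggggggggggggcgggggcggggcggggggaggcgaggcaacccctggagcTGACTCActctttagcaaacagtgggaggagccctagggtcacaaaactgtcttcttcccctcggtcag
S100a11: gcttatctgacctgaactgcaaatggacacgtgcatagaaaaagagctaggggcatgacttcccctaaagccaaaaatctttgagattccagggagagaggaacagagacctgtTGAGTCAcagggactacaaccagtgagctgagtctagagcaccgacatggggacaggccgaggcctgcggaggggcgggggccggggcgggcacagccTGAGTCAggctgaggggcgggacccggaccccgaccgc

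Counted from the gene start, the element began at position -95 in Anxa2, -25 in Adh7 and -69 in Plaur, and at -136 and -38 in S100a11. A promoter of 300 bases, from 250 before to 50 after the start, was matched for 288 of the 346 higher genes, 133 of the 174 lower genes and 15614 of all genes. Of 7 elements searched on both strands, TGANTCA was present in 9.72% of the higher set (28 promoters), 2.26% of the lower set (3 promoters) and 6.98% of all. The antioxidant response element TGACNNNGC was present in 16%, 12.8% and 13.4%, the TEAD element GGAATG in 15.3%, 6.02% and 13.1%, and the E-box CACGTG in 10.8%, 8.27% and 8.38%. The ETS element CCGGAAGT was present in 4.17%, 5.26% and 5.58%, the cyclic AMP element TGACGTCA in 2.08%, 3.76% and 2.49%, and the TATA box TATAAA in 10.8%, 5.26% and 12.1%. So 4 elements had a larger share in the higher set than in all promoters and 3 a smaller one. AP-1 and antioxidant elements can overlap in sequence. These shares describe letters in a window and were not tested, and a match is not a binding site. Median GC content was 62.0% in the higher set, 63.7% in the lower set and 57.7% in all promoters.

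Differences below are on the log2 scale, as the mean of the 5 HRAS groups minus the mean of the 3 groups without HRAS, each group weighted equally, with the standard error (SE) of the fit. The gap of a core gene is the distance between the nearest arrays of the 2 sides. Because the core was chosen from these values, the differences of its members are a description and carry no test. With limma and Benjamini-Hochberg adjustment, 8001 genes (40.1%) differed at adjusted p under 0.05, 3684 (18.5%) higher and 4317 (21.7%) lower with HRAS. The higher calls were thus 46% of all calls, and 58.3% (4622 against 3306) when each array was centred on its median. The core held 9.39% of the higher calls and 4.03% of the lower ones.

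One HRAS array stood apart from its group: HRAS replicate 3 was high for several neuronal genes, among them Map2, Tubb3 and Elavl3. Without it the core held 556 genes, 353 higher and 203 lower. The arrays whose absence added the most genes were MYC replicate 5 and HRAS then MYC replicate 2, each leaving a core of 594, and MYC+Bmi1 replicate 3, leaving 593. A core cannot shrink when an array is left out, so the 520 genes were core in each of these sets.

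**Figure D1:**
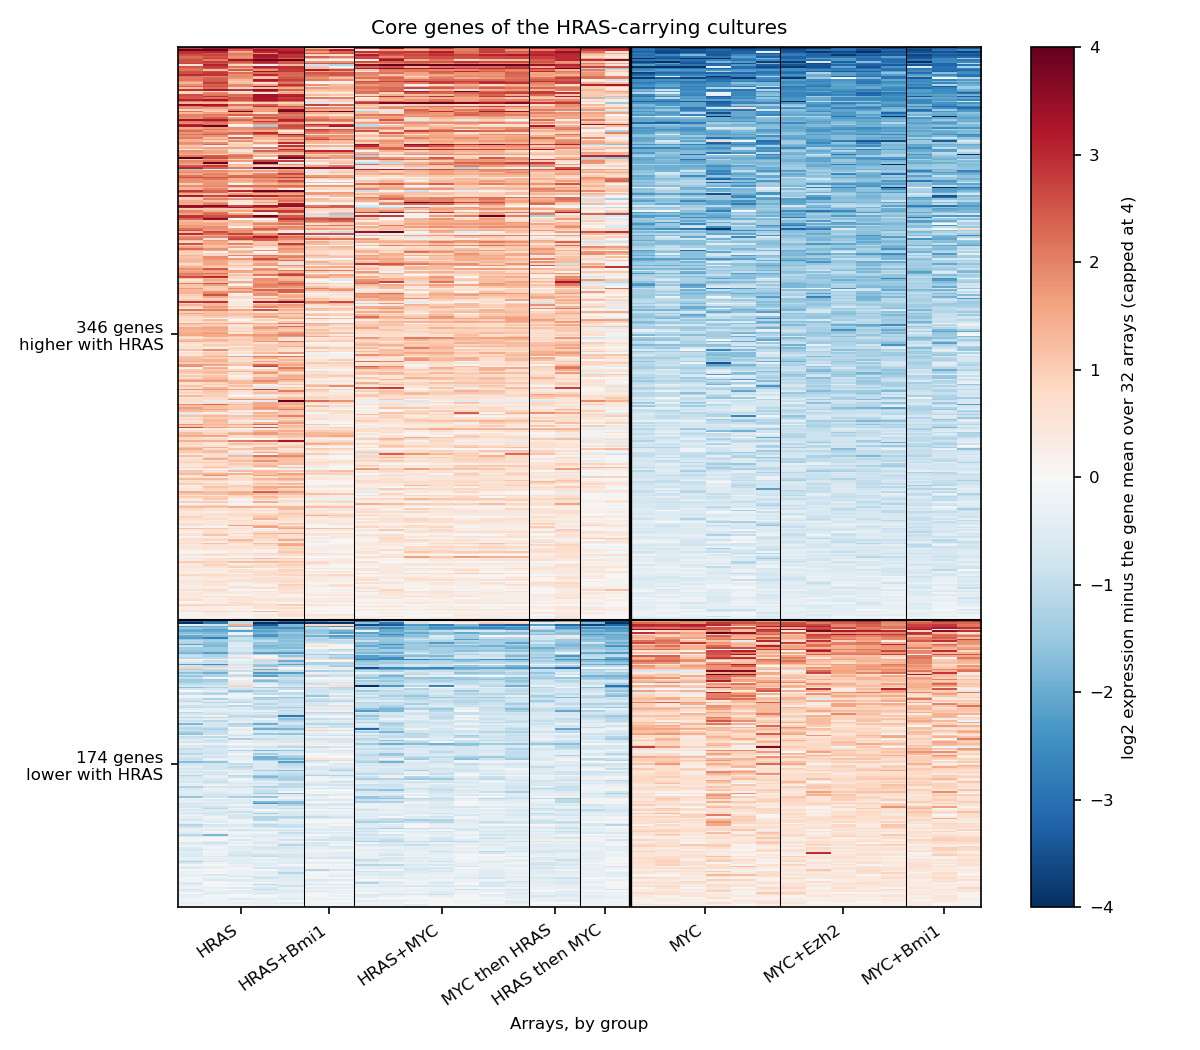
Log2 expression of the 520 core genes (vertical axis) in 32 arrays (horizontal axis, by group), as the difference from the gene's mean over all arrays, capped at 4 either way. The 346 genes above the horizontal line are red in the 18 HRAS arrays left of the thick line, and the 174 below it are blue there. HRAS then MYC is paler than HRAS alone, with median shifts of 1.54 and 2.41 in the higher set.

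Across the higher set the median difference was 2.07, with a range from 0.43 to 7.41. It was -1.44 across the lower set, with a range from -4.58 to -0.32, and -0.02 over all genes. The difference exceeded 1 in 309 higher and 130 lower genes, and 3 in 82 and 15. A gap of at least 1 was seen in 63 higher and 7 lower genes, so most core genes separated by less than that. Of all measured genes, 4 lay under 6 in every array without HRAS and over 8 in every array with it, namely S100a6, Plau, Tm4sf1 and Runx1 (0.0201% of all genes). No gene did the reverse.

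The annexin gene Anxa1 had the largest difference of all measured genes, 7.41 (SE 0.24). Its protein binds membrane phospholipid in the presence of calcium. Its level ran from 11.53 over a median of 12.21 to 12.74 with HRAS, and from 4.13 over 4.45 to 7.44 without. The 18 HRAS arrays were tightly grouped. Among the MYC+Bmi1 arrays (SD 1.81, n = 3), replicate 3 alone stood high, at 7.44 against 4.18 and 4.43.

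S100a6, which encodes a small calcium-binding protein, ran from 9.93 over 11.91 to 12.56 with HRAS and from 4.79 over 5.35 to 5.84 without, a difference of 6.28 (SE 0.13). HRAS+Bmi1 held the lowest HRAS arrays, with a mean of 10.14, whereas the other 4 HRAS groups had means from 11.78 to 12.33. Tm4sf1, a 4-pass membrane protein gene, had the widest gap of the core, 4.23, and a difference of 5.50 (SE 0.12). It ran from 10.16 to 12.03 with HRAS and from 5.22 to 5.92 without, so all 14 other arrays lay in a narrow band far below.

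Annexin and S100 genes made up 11 members of the higher core among 25 measured genes of that list, and none of the lower core. In the pooled comparison 18 rose, none fell and 7 did not pass, with a median difference of 1.57. Besides Anxa1 and S100a6, the core held Anxa2 (5.03), Anxa5 (4.85), Anxa3 (3.89), S100a11 (3.78), Anxa4 (2.72), S100a4 (2.66), Anxa7 (2.36), Anxa11 (2.30) and S100a10 (2.01). S100a10 encodes the partner of annexin A2 in a complex on the inner face of the membrane. Anxa6, whose level was 10.62 with and 10.94 without HRAS, did not pass (adjusted limma p 0.19).

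**Figure D2:**
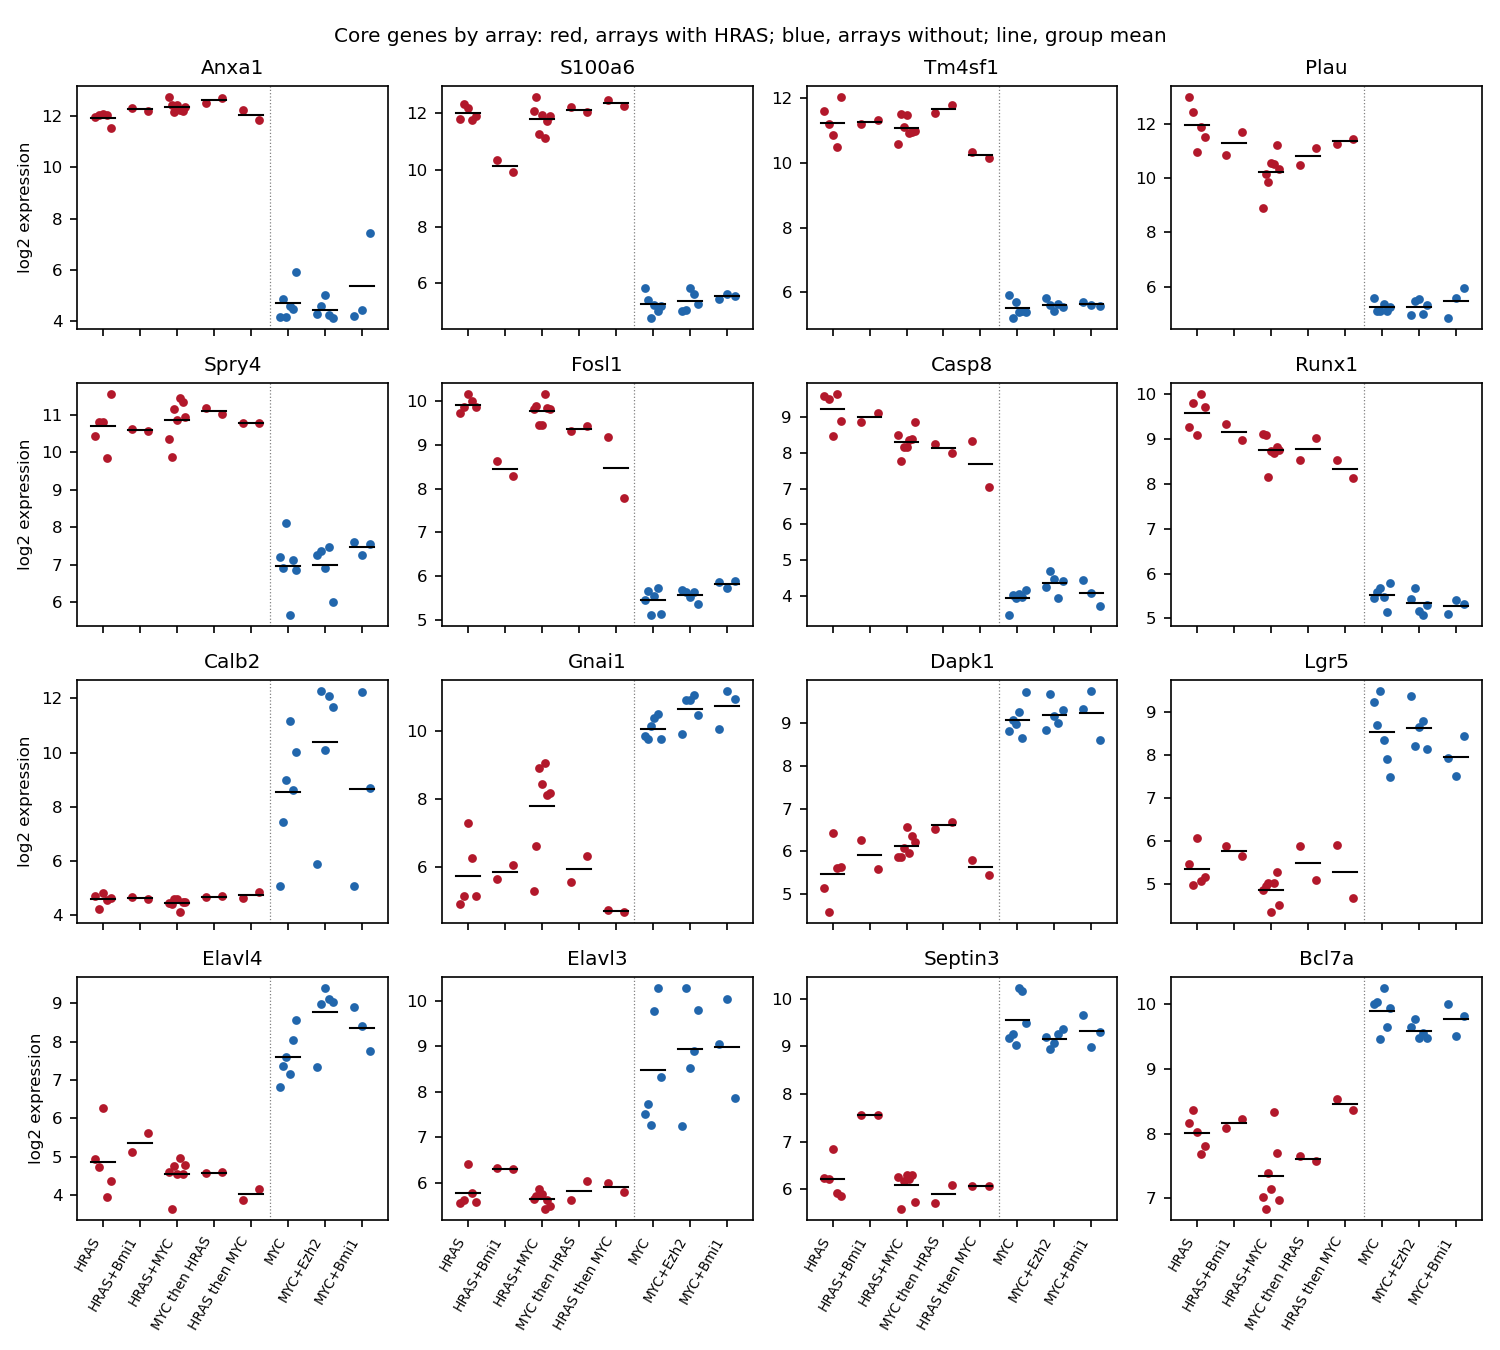
Log2 expression (vertical axes) of 16 core genes in every array, by group, with HRAS arrays in red, the others in blue and a line at each group mean. No red point overlaps a blue one in any panel. Anxa1, S100a6 and Tm4sf1 are far apart, with gaps of 4.10, 4.09 and 4.23, and Calb2 ends at a gap of 0.20.

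Genes known as outputs and feedback regulators of the MAP kinase cascade contributed 8 of their 29 measured members to the higher core and none to the lower. Of the 29, 25 rose in the pooled comparison, 1 fell and 3 did not pass, and their median difference was 1.63. The list's mean level ran from 8.84 to 9.51 in HRAS arrays and from 6.94 to 7.80 in the others. The core members were the ephrin receptor gene Epha2 (4.05), the early response gene Ier3 (4.00), the urokinase receptor gene Plaur (3.93), Spry4 (3.66), Fosl1 (3.58), Phlda1 (2.73), the RAS GTPase-activating protein gene Rasa2 (1.63) and Fosl2 (1.35).

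Spry4 encodes a Sprouty inhibitor of signalling from receptor tyrosine kinases to RAS. It ran from 9.84 over 10.81 to 11.56 with HRAS and from 5.66 over 7.22 to 8.11 without. Its 5 HRAS group means were close together, from 10.60 to 11.11. Fosl1, which encodes the AP-1 subunit FRA1, ran from 7.78 over 9.77 to 10.16 with HRAS and from 5.12 over 5.63 to 5.90 without. HRAS+Bmi1 and HRAS then MYC were the low HRAS groups for Fosl1, with means of 8.46 and 8.47 against 9.37 to 9.92 in the other 3.

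Several classical ERK targets were outside the core although they rose. The phosphatase genes Dusp6 (2.49, adjusted limma p 1.5e-08) and Dusp5 (2.18, adjusted p 2.14e-11) overlapped between the sides, as did Ccnd1 (1.91, adjusted p 1.79e-11). Epha4 fell by 2.01 (adjusted p 3.99e-09). Etv1 (-0.33, adjusted p 0.529), Etv5 (0.43, adjusted p 0.175) and Fos (-0.21, adjusted p 0.591) did not pass.

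Upstream of these outputs, 22 members of the RAS family and the kinase cascade were measured, and 2 were in the higher core. They were the MEK1 gene Map2k1 (1.06), at 9.91 to 10.86 with HRAS against 8.96 to 9.91 without, so that the sides nearly touched, and Rap1b (1.02). In that list 10 rose, 3 fell and 9 did not pass, with a median difference of 0.22. RAS GTPase-activating and other negative regulators had 2 of 16 in the core, Rasa2 and the RAS effector gene Rin1 (2.59), and a median of -0.09. None of 21 genes of the PI3K and AKT pathway was in the core, which held 2.61% of all genes, and in that list 7 rose and 7 fell. Among EGF family ligands and receptors, the ligand gene Ereg (3.74) was in the higher core and the receptor gene Erbb4 (-2.97) in the lower.

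Secreted and protease genes included Plau, the urokinase gene, whose level ran from 8.88 over 11.04 to 12.99 with HRAS and from 4.85 over 5.29 to 5.96 without. Plau differed by 5.81 (SE 0.20) and its receptor gene Plaur by 3.93 (SE 0.21). For Plaur, the 18 HRAS arrays began at 8.84 and the others ended at 7.60. Ptgs2, which encodes the prostaglandin synthase COX-2, ran from 7.12 to 13.19 with HRAS and from 4.86 to 6.13 without, and so varied much more among the HRAS arrays than among the others. In this list 5 of 28 were core higher, 21 rose, none fell and the median difference was 0.52. The cytokine genes Il6 (0.20, adjusted limma p 0.0775) and Il1b (0.00, adjusted p 0.971) did not pass, whereas Csf1 (1.14) and Il11 (1.09) rose outside the core.

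Among 28 mesenchymal and matrix genes 24 rose and none fell, with a median of 1.21, but only 3 were core genes. They were the fibronectin receptor gene Itga5 (3.38), the galectin gene Lgals1 (2.92) and the intermediate filament gene Vim (1.94). Of 19 transcription factors linked to the mesenchymal transition, 5 were core: Prrx1 (4.30), Fosl1, Runx1 (3.54), Twist2 (3.10) and Klf6 (2.04). Runx1 ran from 8.13 over 9.0 to 10 with HRAS and from 5.08 over 5.42 to 5.79 without. Zeb2 and Tcf4 fell by 0.79 and by 1.02 in the pooled comparison, opposite to the 13 members that rose.

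Of 23 actin cytoskeleton and smooth muscle genes, 6 were core, among them the lamin gene Lmna (3.14), Cnn2 (2.60), Ahnak (2.52), the alpha-actinin genes Actn1 (1.78) and Actn4 (1.20), and the nonmuscle myosin gene Myh9 (1.57). In this list 18 rose, none fell and 5 did not pass, with a median of 1.2. The smooth muscle genes Acta2 (0.36, adjusted limma p 0.292), Tagln (0.00, adjusted p 0.979) and Cnn1 (0.07, adjusted p 0.495) did not pass. The tropomyosin genes Tpm1 (1.84) and Tpm2 (2.39) rose but were outside the core. Of 22 stress-response genes known as NRF2 targets 16 rose and none fell, with a median of 0.69, and 5 were core: the alcohol dehydrogenase gene Adh7 (4.95), Nqo1 (3.18), the haem oxygenase gene Hmox1 (2.76), Srxn1 (2.59) and Sqstm1 (1.73). Adh7 ran from 7.64 over 10.05 to 12.54 with HRAS and from 4.70 over 4.92 to 5.49 without. Its lowest HRAS arrays were the 2 of HRAS+Bmi1, at 7.64 and 7.78.

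Glycolysis and hypoxia genes also had 5 of 22 in the core, and 18 rose, 1 fell and 3 did not pass, with a median of 1.02. The glucose transporter gene Slc2a1 ran from 9.65 over 11.74 to 12.09 with HRAS and from 7.51 over 8.53 to 9.33 without. Car9, a carbonic anhydrase gene and a known marker of hypoxia, ran from 5.20 over 7.79 to 10.77 with HRAS and from 4.25 over 4.44 to 4.65 without. Car9 was low and even in all 14 arrays without HRAS and spread widely among the 18 with it. Aldoa (0.96) and Pkm (0.59), enzymes of glycolysis, were core with small differences.

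Neighbouring genes on chromosome 4 that encode inhibitors of cyclin-dependent kinases, Cdkn2b (p15) and Cdkn2a (p16), were both in the higher core. Cdkn2a also encodes p19ARF, which is not such an inhibitor, and its gene-level value does not separate p16 from p19ARF. Cdkn2b ran from 9.10 over 9.74 to 11.31 with HRAS and from 6.10 over 6.76 to 7.10 without. Cdkn2a ran from 9.70 over 10.44 to 11.22 with HRAS and from 8.44 over 9.19 to 9.42 without, a smaller step from a level that was already high. None of 27 cell cycle and replication genes and none of 27 MYC and ribosome biogenesis genes was in the core. The core held 2.61% of all genes, so none in lists of this size is near that share. In those lists 1 and 1 rose and 3 and 9 fell, whereas 18.5% of all genes rose and 21.7% fell.

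**Figure D3:**
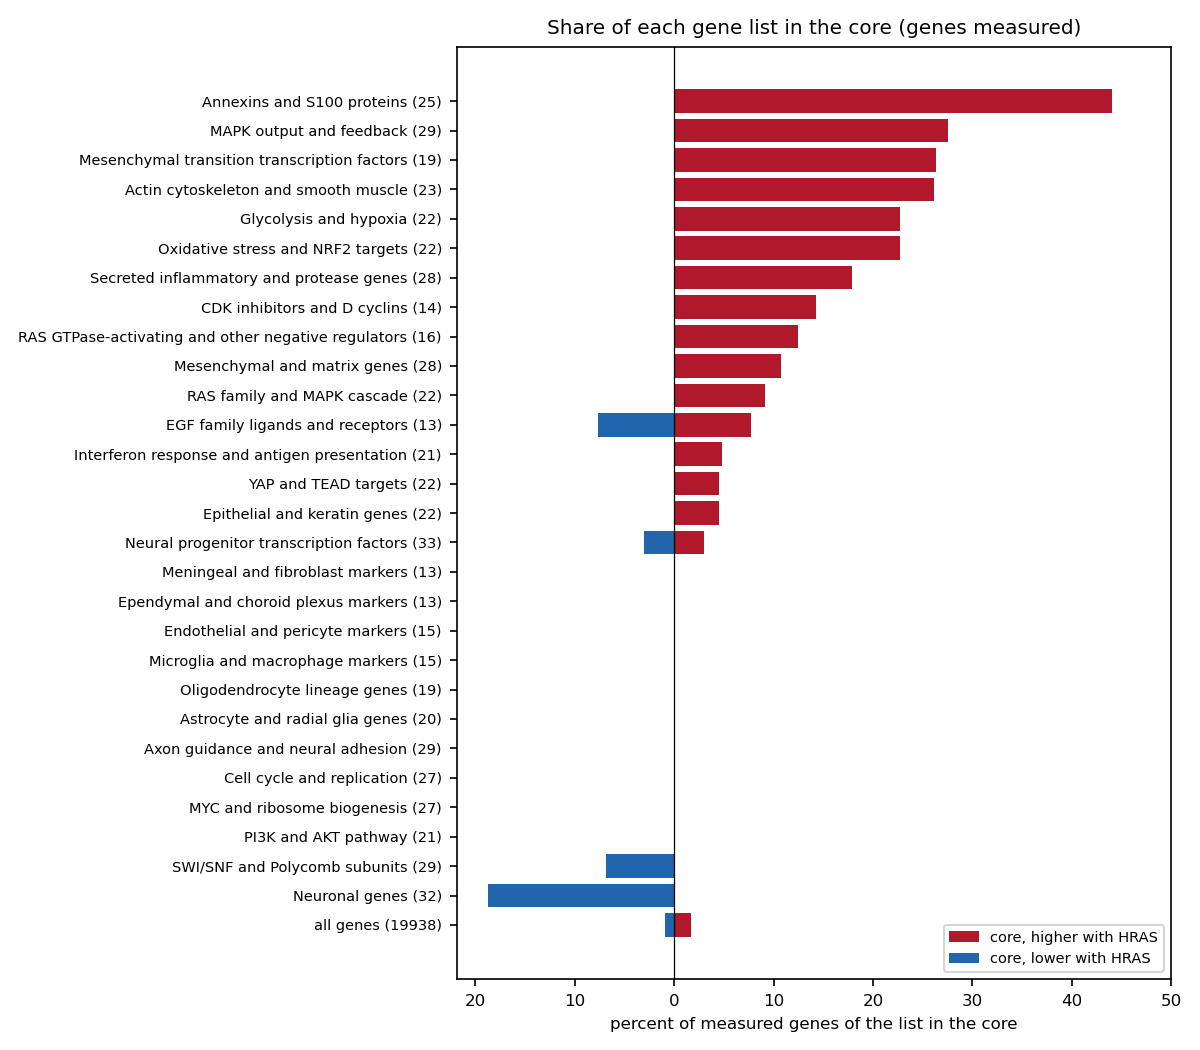
Share of the measured genes of each of 28 lists in the core (horizontal axis, percent), with higher genes to the right in red and lower genes to the left in blue, list sizes in parentheses. The 2 lists added after the values were seen are not plotted. Among those plotted, annexins and S100 proteins reach furthest right (11 of 25) and neuronal genes furthest left (6 of 32), and over all genes the shares are 1.74% and 0.873%.

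The lower core was led by Calb2, which encodes the neuronal calcium-binding protein calretinin. Its level ran from 4.12 over 4.61 to 4.86 with HRAS and from 5.06 over 9.51 to 12.27 without, a difference of -4.58 (SE 0.66). All 18 HRAS arrays were low and alike, whereas the other arrays spread over a wide range that came close to them. Gnai1, an inhibitory G protein subunit gene, ran from 4.66 over 6.14 to 9.06 with HRAS and from 9.76 over 10.44 to 11.19 without. For Gnai1 the spread was on the HRAS side, where HRAS+MYC had a mean of 7.80 and HRAS then MYC one of 4.68.

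Dapk1, which encodes a death-associated protein kinase, had the widest gap of the lower core, 1.91. It ran from 4.59 over 5.93 to 6.68 with HRAS and from 8.59 over 9.11 to 9.74 without. Lgr5, an R-spondin receptor gene and a stem cell marker in several epithelia, had a gap of 1.41 and ran from 4.35 over 5.07 to 6.07 with HRAS and from 7.48 over 8.38 to 9.48 without. For both genes the HRAS arrays spread over a range wider than the gap.

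Neuronal genes gave 6 of 32 measured members to the lower core and none to the higher, with a median difference of -1.27. Of the 32, 21 fell, 4 rose and 7 did not pass. The core members were Elavl4 (-3.56), Elavl3 (-2.92), Elavl2 (-2.50), the beta-tubulin gene Tubb3 (-2.40), Cplx1 (-2.36) and Stmn1 (-1.29). Elavl4, an RNA-binding protein gene of neurons, ran from 3.64 over 4.60 to 6.26 with HRAS and from 6.81 over 8.23 to 9.39 without. The neurofilament genes Nefl (4.61, adjusted limma p 2.71e-09) and Nefm (3.29, adjusted p 7.96e-08) rose, opposite to the list, and their arrays overlapped.

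Neural progenitor transcription factors fell in 25 of 33 cases and rose in 2, with a median of -0.96, but Nfib (-1.71) was the only lower core gene among them. Nfib ran from 8.49 to 10.04 with HRAS and from 10.41 to 11.84 without. The Notch target gene Hes1 (1.44) was in the higher core. Of 29 SWI/SNF and Polycomb subunits 20 fell, 3 rose and 6 did not pass, with a median of -0.39. Ezh2 and Bmi1, which are transgenes in some groups, are among those 29. Bcl7a (-1.83) and Dpf1 (-1.29), both SWI/SNF subunit genes, were in the lower core. Bcl7a ran from 6.84 over 7.75 to 8.54 with HRAS and from 9.46 over 9.70 to 10.24 without. No gene of the axon guidance, astrocyte or oligodendrocyte lists was in the core, which held 2.61% of all genes. In the axon guidance list 16 of 29 fell and 3 rose, and in the astrocyte list 5 of 20 fell and 4 rose. Of 19 oligodendrocyte genes 11 fell and none rose. Of all genes, 21.7% fell and 18.5% rose.

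The neural stem cell gene Sox2 was between 9.69 and 11.92 in the HRAS arrays and between 4.85 and 11.58 in the others. Nes ran from 8.40 to 11.75 and from 8.27 to 10.30, so both exceeded the mean level of all genes, at most 6.57, in every HRAS array. Markers of other cell types were low in mean. The mean of 15 microglia and macrophage markers ran from 4.80 to 5.33 with HRAS and from 4.73 to 5.01 without, and 4 rose and 1 fell. Of these, Cd68 (2.47) stood apart, whereas Aif1, Cx3cr1 and Csf1r did not pass. The mean of 15 endothelial and pericyte markers ran from 5.02 to 5.48 and from 4.89 to 5.16, and 5 rose, Flt1 (1.86) the most. Ependymal and choroid plexus markers (13) ran from 4.43 to 4.86 and from 4.63 to 5.15. Meningeal and fibroblast markers (13) ran from 5.40 to 5.92 and from 5.33 to 6.10. None of the 4 lists had a core gene, against 2.61% of all genes, and their part in the core was not tested. In cultures of many cells, fewer cells of a type and less RNA per cell cannot be told apart.

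**Figure D4:**
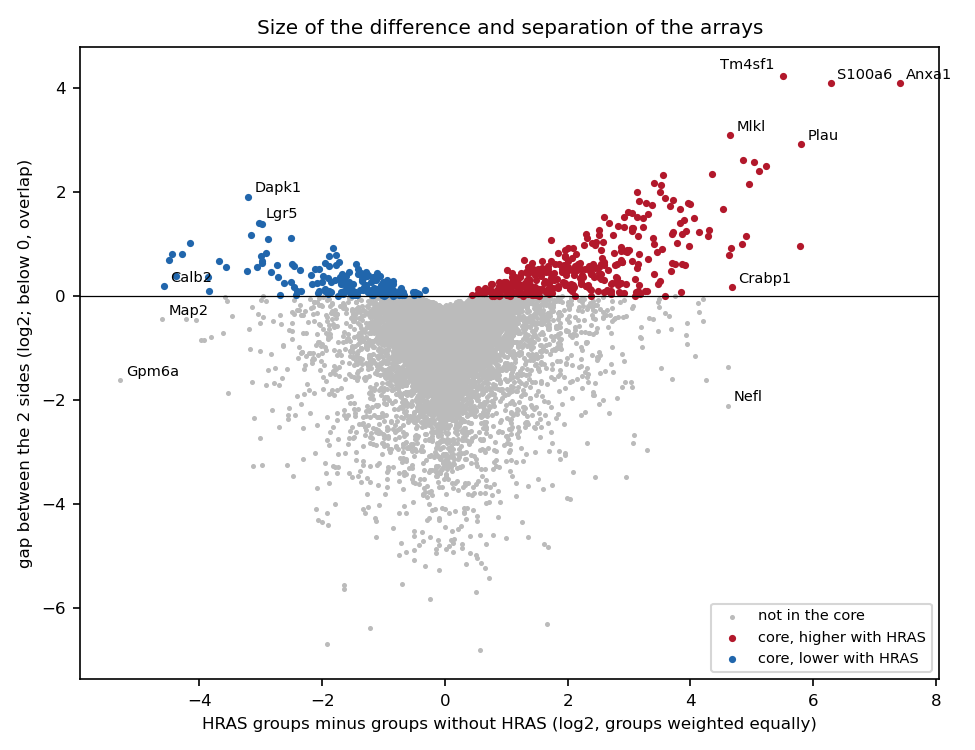
Difference between HRAS groups and groups without HRAS (horizontal axis, log2) against the gap between the nearest arrays of the 2 sides (vertical axis, log2, below 0 where they overlap), 1 point per gene. Core genes lie above 0. Gpm6a at -5.30 and Map2 at -4.61 lie below 0, whereas Tm4sf1 has the widest gap, 4.23.

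Large differences did not always place a gene in the core. Of 338 genes that rose by over 2, 156 were outside, and of 161 that fell by over 2, 118 were outside. Gpm6a, a neuronal membrane glycoprotein gene, fell by 5.30, the most of all genes, but MYC+Bmi1 replicate 3 lay at 5.80 and HRAS arrays reached 7.42. Map2, a neuronal microtubule protein gene, fell by 4.61 and missed the core through HRAS replicate 3 alone, at 9.99. Sfrp2 (-4.05) missed it through the same array. MYC replicate 5 alone kept out Fetub (4.25), Akr1b8 (4.14) and Lmo3 (-4.22), and Sparc (4.21) was kept out by MYC+Bmi1 replicate 2 and MYC replicate 6. At the border, Vasn, Arl11 and Ehd4 were just inside with gaps of 4e-04, 0.0012 and 0.0015, and Bloc1s6, Sertad2 and Slc39a13 were just outside with gaps of -0.00042, -0.0012 and -0.0015.

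The HRAS groups did not share the core evenly. In the higher set, the median shift from the mean of the groups without HRAS was 2.41 in HRAS, 2.11 in MYC then HRAS, 2.09 in HRAS+MYC, 1.86 in HRAS+Bmi1 and 1.54 in HRAS then MYC. HRAS then MYC was the nearest group to the other side in 182 of 346 higher genes and HRAS+Bmi1 in 96, whereas HRAS alone was nearest in 6 and farthest in 161. In the lower set the shifts were closer, from -1.57 in HRAS+MYC to -1.21 in HRAS+Bmi1. The array HRAS then MYC replicate 2 was the lowest HRAS array for 97 of the 346 higher genes. A limma F test over the 5 HRAS groups passed for 217 of 346 higher genes (62.7%) and 52 of 174 lower genes (29.9%), against 32.8% of all genes.

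Over the 3 groups without HRAS, the F test passed for 6 core genes. These were 1.16% of the higher set and 1.15% of the lower set, against 0.176% of all genes. They were Lgals1 (adjusted limma p 0.00111), Lamb1, Bag3, Specc1, Kcnn2 and Sobp. Lgals1 had means of 9.37 ± 0.57 (SD, n = 6) in MYC, 10.44 in MYC+Ezh2 and 10.93 in MYC+Bmi1. The count was 16 without MYC+Ezh2 replicate 1, 11 without MYC+Bmi1 replicate 1 and 1 without MYC replicate 2. It was 3 without MYC+Ezh2 replicate 3, MYC+Ezh2 replicate 4 or MYC+Bmi1 replicate 3, and 2 without MYC+Ezh2 replicate 5. The core rule keeps all 14 arrays on one side, which limits how far these groups can differ.

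Whether MYC, present in 3 HRAS groups and absent in 2, shifted the core was asked within the HRAS arrays, which the rule did not divide. The rule still keeps all 18 on one side, which limits how far an HRAS group can lie towards the other side. The same holds for the F test above and the comparisons by order and Bmi1 below. Core genes also had higher levels, with medians of 8.31 (higher set) and 7.13 (lower set) against 6.36 over all genes. The groups without MYC are labelled glioma and those with it AT/RT-like or secondary tumour, so MYC and label cannot be told apart. Of 346 higher genes 27 (7.80%) were higher with MYC and 85 (24.6%) lower, against 12.2% and 12.1% of all genes (24.4% either way). Of 174 lower genes 7 (4.02%) were higher and 27 (15.5%) lower. The median difference was -0.13 in the higher set, -0.08 in the lower set and 0.05 over all genes.

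Ptgs2 had the largest rise with MYC, 2.84 (SE 0.33, adjusted limma p 4.79e-07). Its mean was 12.70 ± 0.42 (SD, n = 7) in HRAS+MYC and 9.42 ± 1.28 (SD, n = 5) in HRAS, and every HRAS+MYC array lay above every HRAS array. The HRAS+Bmi1 arrays were lower still, at 7.47 and 7.12. The groups with MYC did not agree for Ptgs2. MYC then HRAS was at 11.78 and 11.35, whereas HRAS then MYC, at 9.85 and 8.79, lay within the range of the HRAS arrays, 7.98 to 11.44. The mesenchymal factor gene Twist2 rose by 2.41 (adjusted p 7.31e-07), and the EGF receptor ligand gene Ereg by 1.65 (adjusted p 2.14e-06). For Ereg, HRAS then MYC went the other way, at 7.31 and 5.72 against 7.93 to 8.55 in the HRAS arrays.

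Chrna1, a muscle acetylcholine receptor subunit gene, fell the most with MYC, by 3.12 (SE 0.42, adjusted limma p 4.33e-06). Its mean was 6.58 ± 0.79 (SD, n = 7) in HRAS+MYC and 10.12 ± 1.32 (SD, n = 5) in HRAS, without overlap, and the HRAS+Bmi1 arrays were at 10 and 9.91. The cytokine gene Il33 fell by 2.76 (adjusted p 0.00105) and the pentraxin gene Nptx1 by 2.73 (adjusted p 1.17e-08). In the lower set, the storkhead-box gene Stox2 fell by 2.90 (adjusted p 2.59e-05) and the chromatin organiser gene Satb1 by 1.87 (adjusted p 4.4e-08). For Satb1 the groups with MYC differed from each other, as the comparison by order below shows. The amino acid transporter gene Slc6a15 rose by 2.83 (adjusted p 0.000163), to a mean of 7.70 ± 1.41 (SD, n = 7) in HRAS+MYC. Leaving out any single array kept these 9 calls.

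**Figure D5:**
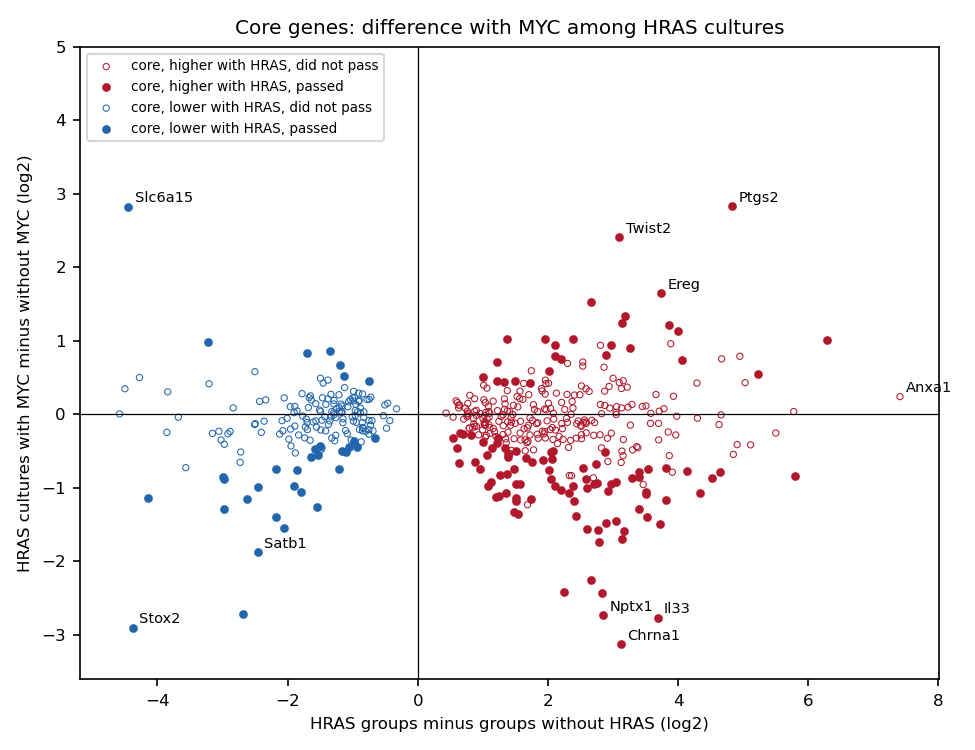
Difference between HRAS and other groups (horizontal axis, log2) against the difference between HRAS cultures with and without MYC (vertical axis, log2) for 520 core genes, filled where limma's adjusted p was under 0.05. Ptgs2 lies highest at 2.84 among the higher genes and Chrna1 lowest at -3.12, and Slc6a15 at 2.83 stands apart in the lower set.

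The order of the oncogenes was compared between MYC then HRAS and HRAS then MYC, 2 arrays each. Of the higher core 38 genes (11%) were higher in MYC then HRAS and 7 (2.02%) lower, against 1.7% and 1.58% of all genes (3.28% either way). Of the lower core 1 (0.575%) was higher and 6 (3.45%) lower. The median difference was 0.41 in the higher set and 0 over all genes. The sodium-proton exchanger gene Slc9a2 differed the most, at 10.94 and 11.71 in MYC then HRAS against 6.67 and 6.26, a difference of 4.86 (SE 0.31, adjusted limma p 4.4e-11). Gprc5a, a retinoic acid-induced receptor gene, was at 9.80 and 10.22 against 5.79 and 5.41, a difference of 4.41 (adjusted p 3.99e-07). Ereg (3.54, adjusted p 1.01e-06) and the growth hormone receptor gene Ghr (3.43, adjusted p 5.68e-05) were higher in MYC then HRAS too.

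Going the other way, Bcl6b was at 8.11 and 8.07 in MYC then HRAS against 10.47 and 10.56, a difference of -2.42 (adjusted limma p 0.000651). In the lower core, Satb1 was at 5.84 and 5.06 against 8.05 and 7.99, a difference of -2.57 (adjusted p 2.24e-05). For Serpinf1 the difference was -3.01 (adjusted p 0.0081), and it did not pass without MYC then HRAS replicate 2 (adjusted p 0.205) or HRAS then MYC replicate 1 (adjusted p 0.105). Altogether 52 core genes passed, and this fell to 22 without MYC then HRAS replicate 2 and to 26 without HRAS then MYC replicate 2. Leaving out 1 array leaves 1 in its group, which is then assumed to vary like the other groups.

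Adding Bmi1 to HRAS gave calls mostly towards the arrays without HRAS. Of the higher core 2 genes (0.578%) rose and 62 (17.9%) fell, against 2.87% and 3.04% of all genes (5.91% either way), and of the lower core 13 (7.47%) rose and 2 (1.15%) fell. The median difference was -0.40 in the higher set, 0.18 in the lower set and -0.01 over all genes. The Bmi1 difference in HRAS cells minus that in MYC cells, tested as an interaction in limma, passed for 34 of the higher core (9.83%) and 5 of the lower (2.87%), against 2.43% of all genes. HRAS+Bmi1 had only 2 arrays, and the 79 calls fell to 16 without its replicate 1 and to 22 without its replicate 2.

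Sprr1a, a cornified envelope protein gene, had a mean of 10.16 ± 0.58 (SD, n = 5) in HRAS and was at 6.51 and 6.08 in HRAS+Bmi1, a fall of 3.86 (adjusted limma p 0.000548). Adh7, whose promoter is shown above, had a mean of 11.22 ± 1.20 (SD, n = 5) in HRAS against 7.64 and 7.78, and fell by 3.51 (adjusted p 0.000339). The peptidase gene Cpq fell by 3.03 (adjusted p 1.19e-05) and Ghr by 2.70 (adjusted p 0.000109), and these 4 calls held without any single array. In the lower core, Slain1, a microtubule plus-end protein gene, rose by 1.66 (adjusted p 0.00788) and Septin3 by 1.34 (adjusted p 0.00375). Neither passed without HRAS+Bmi1 replicate 1 (adjusted p 0.133 and 0.0891) or replicate 2 (adjusted p 0.118 and 0.0728). The netrin receptor gene Unc5b, in the higher core, rose by 1.05 (adjusted p 0.00317) but not without replicate 1 (adjusted p 0.193).

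Of the 520 core genes, 302 passed in none of the comparisons by MYC, order or Bmi1, and 251 did not pass the F test over the HRAS groups. A p that misses the threshold does not show that the groups were equal.

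Some core genes are neighbours on a chromosome. In 17 cases a higher core gene was followed directly by another among the measured genes, which is 4.91% of the higher set. The higher core held 1.74% of all genes. In 2 cases a lower one was followed by a lower one, 1.15% of the lower set against 0.873% of all genes. The pairs included Cflar and Casp8 on chromosome 1, S100a11 and S100a10 on chromosome 3, Cdkn2a and Cdkn2b on chromosome 4, and Steap2 and Steap1 on chromosome 5. These pairs are related or adjacent genes, and no test was made.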

How the data were processed

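The authors deposited 1 log2 value for each probe set and array. Per the submitters' processing notes, it came from RMA (robust multi-array average) run in Affymetrix Expression Console 1.0. Quantile normalization in RMA hides overall shifts of RNA, and differences between low array values can be compressed. What else was done is not given in the sources used here. No counts or detection values were used, so the number of arrays limits the precision.

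Of 35557 probe sets, 21789 had 1 gene symbol, 1621 several and 12147 were not listed in the platform annotation. For 999 genes with more than 1 probe set, that of highest mean was used, and 19938 genes remained. No arrays were identical, and the highest correlation of a pair was 0.992.

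One linear model with 8 group means was fitted to 32 arrays with limma 3.58.1 in R 4.3.3, with eBayes and 2-sided Benjamini-Hochberg adjustment over all genes, and was tested on simulated data. The MYC comparison takes the mean of 3 HRAS groups with MYC minus that of 2 without. RefSeq (GRCm38.p6) gave gene order and promoters.

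Named genes were the core genes with the largest differences or widest gaps, up to 4 core members of each list, those nearest the border, the largest genes outside the core, and up to 4 rising and 4 falling in each comparison within HRAS. X and Y linked genes and unnamed gene models were left out. Other list members are named as examples. Members, lists and comparisons were chosen with earlier results of these data known. Lists are described by counts and medians, to be read beside those of all genes. Alternatives covered left-out arrays and groups, centring, probe-set averaging, array weights and a replicate block.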

Additional observations from a re-analysis of the deposited data

Results flagged for a closer look

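Among 344 tests of 86 genes named from the core and its border in the 4 groups of 5 to 7 arrays, 32 found 1 array far from the rest of its group by Dixon's test, which chance gives in about 1 in 20. HRAS replicate 3 accounted for 8 of them. It was high for Map2 (9.99, others 5.20 to 6.18), Tubb3 (8.08), Gpm6a (7.42), Nell2 (6.81), Lrrn1 (6.59), Elavl3 (6.41) and Sncaip (5.63), and low for Pla2g7 (9.45). Without it the core held 556 genes.

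HRAS replicate 5 was low for Anxa1 (11.53) and high for Akr1b8 (10.71). In HRAS+MYC, replicate 1 was low for Mlkl (7.87) and Satb1 (4.60), and replicate 2 was low for Tes (10.23), Gprc5a (8.53), Slain1 (4.31) and Elavl4 (3.64). Replicate 3 of that group was low for Prrx1 (9.35), and replicate 5 was low for Calb2 (4.12) and high for Rin1 (9.32).

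Among the arrays without HRAS, MYC replicate 4 was low for Lgals1 (8.28) and Vim (9.16) and high for Crabp1 (10.29). MYC replicate 5 was high for Stmn1 (12.30), Nqo1 (6.48) and Fetub (6.43), MYC replicate 6 was high for Pla2g7 (7.60), and MYC replicate 1 was low for Casp8 (3.47). MYC+Ezh2 replicate 1 was low for Lmo3 (9.28), Elavl4 (7.33), Shtn1 (7.02) and Dlx5 (6.39), and replicate 2 was high for Prrx1 (6.56).

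The Bmi1 difference within HRAS cells minus that within MYC cells was tested as an interaction in limma, and 15 of the 86 named genes passed, against 34 of the 346 higher core genes, 5 of the 174 lower ones and 2.43% of all genes. Some of the 86 were named for their Bmi1 difference in HRAS cells, so their count does not show how common the interaction is. It was negative for Crabp1 (-3.79, adjusted p 0.027), Sprr1a (-3.73), Adh7 (-3.51, adjusted p 0.0118), Epha2 (-2.64, adjusted p 0.000332), S100a11 (-2.51), Ghr (-2.24), S100a6 (-2.14, adjusted p 0.00142), Gprc5a (-1.96), Fosl1 (-1.85, adjusted p 0.000824), Lmna (-1.83), Ereg (-1.69), Lgals1 (-1.39), Slc9a2 (-1.26) and Cdkn2a (-1.19). It was positive for Septin3 (1.58, adjusted p 0.0194). HRAS+Bmi1 had 2 arrays.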

How the results depend on the processing

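For the 86 named genes, the pooled difference kept its direction and its side of the threshold in all 1545 combinations of gene and setting. The genes were named from the core and its border, which rest on the same values, so this is no independent support. The core count of 520 rose to 927 without the MYC group, to 1025 with only the HRAS groups that carry MYC, and to 1041 when 1 array could lie on the wrong side, and it fell to 70 with a gap of at least 1. Fewer arrays make the rule easier to meet. Thresholds of 7 and 8 in place of 6 and 8, chosen after the data were seen, gave 15 switch-like genes. Leaving out 1 array gave 7313 to 8185 genes in the pooled comparison and 520 to 594 core genes. Among core genes it gave 108 to 150 that differed with MYC, 221 to 272 that varied over the HRAS groups, 22 to 43 by order, 16 to 105 with Bmi1 and 1 to 16 over the groups without HRAS. Centring gave 552 core genes, 455 of them shared with the 520.

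Replicate numbers showed no clear pairing of the arrays. After the group means were taken off, same-numbered arrays of different groups had correlations from -0.301 to 0.433, with a median of 0.0122. Arrays with other numbers had correlations from -0.456 to 0.41, with a median of -0.00229. In groups of 2 arrays the remainders mirror each other, so this check cannot exclude a pairing. With the replicate block, 7699 genes passed in the pooled comparison and 660 were core, 467 of them shared. Within the core, 143 then differed with MYC, 253 varied over the HRAS groups, 49 differed by order, 68 with Bmi1 and 4 over the groups without HRAS. The number of arrays in the groups of 2 limits the comparisons by order and with Bmi1.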

Other observations

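Genes of death receptor signalling and necroptosis formed a group in the higher core that was listed after the values were seen. Of 18 measured, 14 rose, 2 fell and 2 did not pass, and 5 were core. Of all genes, 18.5% rose, 21.7% fell and 2.61% were core. Because the list was made from these values, its counts are no support. Mlkl, the effector of necroptosis, ran from 7.69 over 8.86 to 9.93 with HRAS and from 3.74 over 4.29 to 4.60 without, a gap of 3.09. Casp8, the initiator caspase, ran from 7.03 over 8.43 to 9.64 and from 3.47 over 4.05 to 4.70. Its inhibitor Cflar ran from 8.0 over 8.96 to 10.18 and from 4.52 over 5.59 to 6.70, and the receptor gene Tnfrsf1a differed by 1.48. For all 4 the sides were separate.

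Genes of caveolae and membrane repair, also listed after the values were seen, had 6 core members among 12 measured, and 11 rose and none fell. The shares of all genes were 2.61% core, 18.5% higher and 21.7% lower, and these counts too are no support. Myof, a ferlin gene, ran from 9.22 over 11.27 to 11.82 with HRAS and from 4.62 over 5.64 to 8.07 without. The caveolin gene Cav2 differed by 3.97 and Cavin1 by 2.94. Cav1 rose by 2.40 (adjusted limma p 1.51e-06) but its sides overlapped.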
